A study of Mus musculus with 31 samples.

Results

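Brd1 and the genes of its histone acetyltransferase complexes were examined as 9 members of 52636 gene identifiers in the table. They were chosen by name for their known place in these complexes, with earlier results of these data known. The members were the scaffold genes Brd1, Brpf1 and Brpf3, the catalytic genes Kat6a, Kat6b and Kat7, the reader genes Ing4 and Ing5, and the accessory gene Meaf6. All 9 passed the filter on low values in each comparison. Abundance was measured by RNA sequencing in the caudate putamen (CPu), the dorsal part of the striatum, of 31 mice, 8 to 11 weeks old. The labels give all of them as female, against which the Y-linked genes of 1 library go, and as the strain C57BL/6NTac-Brd1. There were 8 vehicle administered WT mice, 7 vehicle administered Brd1+/- mice, 8 WT mice administered the tricyclic antidepressant imipramine (IMN) at 10 mg/kg, and 8 IMN administered Brd1+/- mice, where vehicle was saline. The Brd1+/- mice came from 1 line, C57BL/6NTac-Brd1tm1.2Arte/AborgMmucd, heterozygous for a targeted deletion made with loxP sites around exons 3 to 5 of Brd1. Each library was 1 mouse, taken as a needle punch of frozen right CPu after the mouse had been through behavioral testing with injection of vehicle or drug, which all groups share. The questions were how far the level of Brd1 fell with 1 targeted allele, and whether any partner gene was higher or lower beside it.

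In these complexes, a BRPF scaffold (BRD1, also called BRPF2, BRPF1 or BRPF3) holds together a catalytic subunit of the MYST family (KAT6A, KAT6B or KAT7), an ING protein that binds trimethylated lysine near the start of histone H3, and MEAF6. The scaffolds read histones with PHD fingers, a bromodomain and a PWWP domain, and direct the enzyme to the tail of histone H3, whereas JADE scaffolds direct KAT7 to histone H4. BRPF1 is best known as a partner of KAT6A and KAT6B, and BRD1 and BRPF3 as partners of KAT7, and human BRD1 has been linked to schizophrenia and bipolar disorder.

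The targeted exons are shown because they set what the abundance of Brd1 can count. In the Brd1 transcript Brd1-203 of 5152 bases and 13 exons, exons 3 to 5 together hold 418 coding bases, 8.11% of the transcript, between chr15:88713298-88717062 on the minus strand of GRCm38. The exon numbers of the study were taken to be those of this transcript. Exon 3, the first of the targeted exons, is given 5′ to 3′ in capitals, with the adjoining 15 bases of exons 2 and 4 in lower case. The line after it joins the last 30 bases of exon 2, in lower case, to exon 6 as a transcript without exons 3 to 5 would read, put together from the reference. Its capitals run for 52 bases from the start of exon 6 through the first stop codon of that frame, TGA.

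Brd1 exon 3: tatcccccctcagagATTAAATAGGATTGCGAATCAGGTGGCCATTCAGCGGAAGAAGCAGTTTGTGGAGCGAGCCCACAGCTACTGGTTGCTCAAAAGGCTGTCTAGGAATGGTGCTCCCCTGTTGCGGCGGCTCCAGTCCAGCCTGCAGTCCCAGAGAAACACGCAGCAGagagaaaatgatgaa

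Brd1 exon 2 to exon 6: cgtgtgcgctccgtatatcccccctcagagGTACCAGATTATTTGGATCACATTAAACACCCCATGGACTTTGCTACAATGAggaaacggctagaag

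Exon 3 spans chr15:88716906-88717062, exon 4 chr15:88713886-88714017 and exon 5 chr15:88713298-88713426, with 157, 132 and 129 bases. Read without them, the frame of the transcript shifts, since 418 leaves a remainder of 1 when divided by 3. A stop then follows after 472 codons in place of 1189, and the first 455 come whole from exon 2, since exon 1 holds 0 coding bases. An RNA from the targeted allele that keeps its other exons would still add reads to Brd1, so the abundance below is that of both alleles and not of the intact transcript alone.

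Values are in TPM, a unit that corrects the reads of a gene for gene length and gives each mouse a common total, so that levels can be set side by side between genes. All 10 markers of striatal projection neurons were found, and their mean log2(TPM + 1) lay between 8.20 and 9.14 in the 23 mice outside the vehicle administered WT group. In that group it lay between 3.39 and 9.17 (median 7.88), the lowest being mouse 2. The score of 10 cortical neuron markers, all found, ran from 0.903 to 5.98 (median 5.60) in vehicle administered WT mice and from 1.33 to 3.32 (median 2.72) in vehicle administered Brd1+/- mice. Under IMN it ran from 0.961 to 4.92 (median 2.08) in WT and from 1.08 to 3.79 (median 2.54) in Brd1+/- mice. Among these cortical markers Emx1 was at 0 TPM in at least 1 mouse. Vehicle administered WT mouse 7, labelled female, had 26.8 TPM summed over 4 Y-linked genes, and no other mouse was above 0.188. In bulk tissue, fewer cells of a type and less RNA per cell cannot be told apart.

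Brd1 (ENSMUSG00000022387, chr15:88687034-88734233, GRCm38, minus strand), the scaffold that was targeted, was lower in every Brd1+/- mouse than in every WT mouse of the same treatment. In vehicle administered WT mice its lowest, median and highest levels were 18.3, 23.0 and 26.9 TPM, with a mean of 22.5 ± 2.97 TPM (SD, n = 8). In the Brd1+/- mice given vehicle they were 11.1, 13.1 and 16.0 TPM, with a mean of 13.4 ± 2.02 TPM (SD, n = 7). These groups did not overlap, and the mean of the Brd1+/- mice was 59.4% of that of the WT mice. In IMN administered WT mice the levels were 14.6, 21.0 and 22.5 TPM, with a mean of 19.9 ± 2.67 TPM (SD, n = 8). In IMN administered Brd1+/- mice they were 11.3, 12.9 and 13.8 TPM, with a mean of 12.8 ± 1.04 TPM (SD, n = 8). Here too the groups did not overlap, and the mean was 64.0% of WT. Groups that did not overlap in either direction were found for 0.289% of 23200 genes tested under vehicle and for 0.0129% of 23339 under IMN. A two-sided exact permutation test over mice gave p = 0.0003108 under vehicle and p = 0.0001554 under IMN, in each case the smallest p that the 6435 and 12870 regroupings allow.

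**Figure D1:**
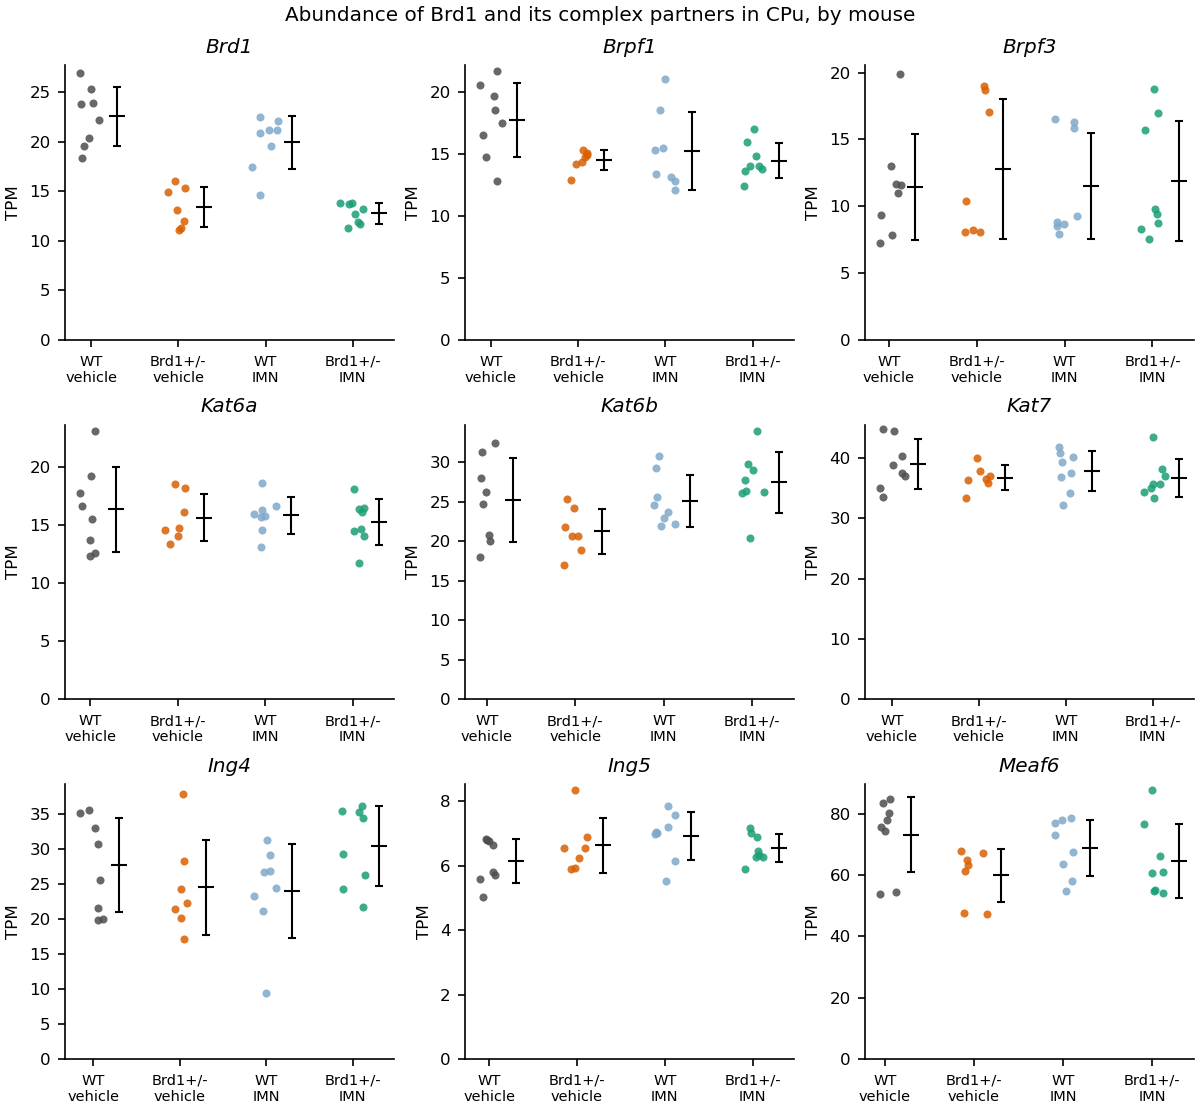
Each panel plots the abundance of 1 member in TPM (vertical axis, from 0) by group, with 1 point per mouse and the mean ± SD beside it (n = 8, 7, 8 and 8). The Brd1 points of the Brd1+/- groups lie between 11.1 and 16.0 TPM, under the WT mice of the same treatment, and the other 8 panels overlap between genotypes.

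Tested across all genes with limma on log2(TPM + 1), Brd1 had the smallest p of all genes in each genotype comparison. Over both treatments its log2 fold change was −0.65 (SE 0.07, 95% interval −0.79 to −0.52, adjusted p = 7.63e-07), which leaves 63.6% of the WT level (95% interval 58.0 to 69.7%). Of 25394 genes tested, Brd1 was the 1 that passed an FDR of 5% (0.00394%). Under vehicle it was −0.71 (SE 0.10, 95% interval −0.93 to −0.49), and under IMN −0.60 (SE 0.08, 95% interval −0.77 to −0.42). The adjusted p was 0.0556 under vehicle, where 0 genes passed an FDR of 5% although 7168 of 23200 had an unadjusted p under 0.05. Under IMN it was 0.0396, and Brd1 was the 1 gene that passed (0.00428%). With the mouse number as a block (adjusted p = 0.474), with the cortical score added (0.0577) or without the filter, this call was lost. The block gave Brd1 an adjusted p of 0.0244 under vehicle, where 15.4% of all genes passed an FDR of 5%. The IMN call was lost when any 1 of 14 of the 16 mice was left out (adjusted p 0.0523 to 0.142) and kept without IMN administered WT mouse 2 or 6. The vehicle call was gained without vehicle administered WT mouse 6 or 8 (adjusted p = 0.0103 and 0.00664), fits in which 19.9% and 23.8% of all genes passed an FDR of 5%. The call over both treatments held without each mouse in turn.

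The size of the loss differed with how mice were scaled to each other. Over all genes under vehicle, the median log2 fold change was −0.13 on the deposited values. It was −0.00077 after median-of-ratios scaling. This scaling divides each mouse by a factor from its typical gene, so that a median near 0 was set in advance. All genes of a mouse share that factor, so that under vehicle the members moved up by a similar amount. As many as 89.2% of the genes called at p under 0.01 were lower in Brd1+/- mice before this scaling, against 57.8% after it. With this scaling Brd1 in Brd1+/- mice stood at 69.1% of WT under vehicle (95% interval 61.6 to 77.5%) and at 68.6% over both treatments (95% interval 64.0 to 73.5%). A pseudocount of 0.1 gave 59.5% (95% interval 50.7 to 69.8%) and 62.1% (95% interval 56.3 to 68.4%). The lower end of the interval was above 50%, the level of 1 allele alone, in each of these fits. When the cortical marker score was added to the fit, the log2 fold change of Brd1 under vehicle was −0.60 (adjusted p = 0.161) against −0.71 without it. Vehicle administered WT mice 6 and 8 had cortical scores of 0.903 and 1.01, under those of all vehicle administered Brd1+/- mice. Their Brd1 was at 20.4 and 18.3 TPM, above the highest Brd1+/- mouse at 16.0 TPM. The part of cortical tissue in the genotype differences of Brd1 and of its partners was not tested.

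Of the other 8 members, 0 were called by genotype at p under 0.01 under vehicle, under IMN or over both treatments, where the shares of all genes called were 13.6%, 0.703% and 10.1%. Among the settings of the fit tried, the 2 that added a call were quantile normalization, with Ing5 higher under vehicle, and the mouse number as a block, with Brpf1 lower. In these 2 fits 9.53% and 17.7% of all genes were called. Under vehicle and over both treatments, the lowest log2 fold changes beside Brd1 were those of Meaf6 and Brpf1. The partners' groups overlapped between the genotypes under both treatments, as did those of all but 0.289% of genes under vehicle and 0.0129% under IMN.

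**Figure D2:**
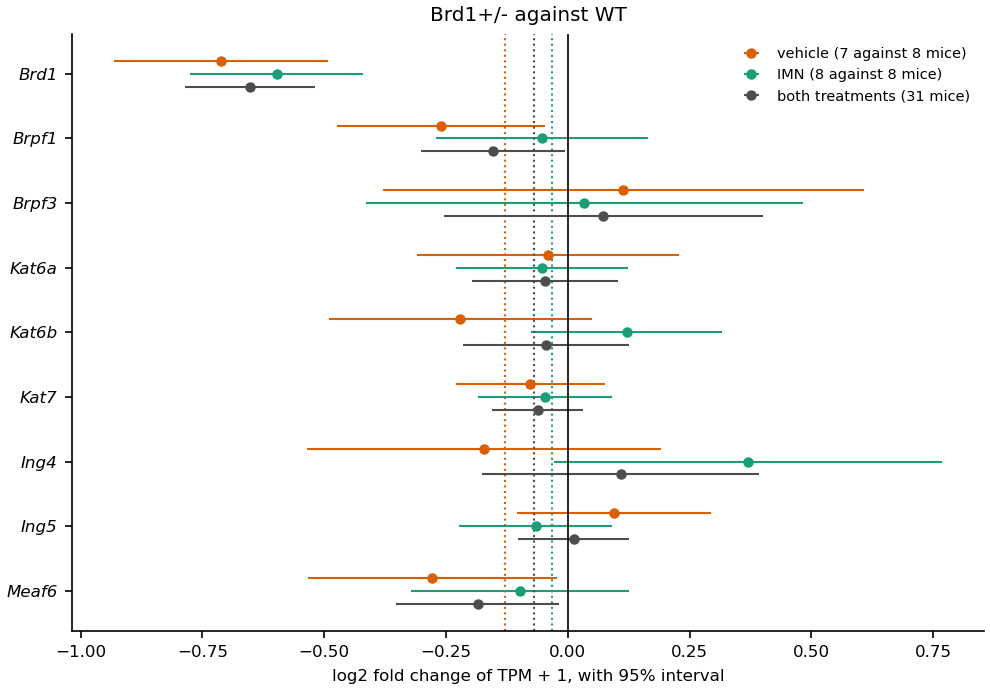
The horizontal axis is the log2 fold change of TPM + 1 in Brd1+/- against WT mice, with points and 95% intervals from limma for each member under vehicle (7 against 8 mice), under IMN (8 against 8) and over both treatments (31 mice), and dotted lines mark the median of all genes tested in the same colors. Brd1 lies between −0.71 and −0.60, and the intervals of the other members under IMN reach across 0.

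Brpf1 (ENSMUSG00000001632, chr6:113307137-113324860), the scaffold nearest in use to KAT6A and KAT6B, had lowest, median and highest levels of 12.8, 18.01 and 21.7 TPM in vehicle administered WT mice and of 12.9, 14.8 and 15.3 TPM in Brd1+/- mice under vehicle. Above every Brd1+/- mouse were 6 of the 8 WT mice, and WT mouse 8 was under all of them. Under IMN the levels were 12.1, 14.3 and 21.1 TPM in WT mice and 12.4, 14.0 and 17.0 TPM in Brd1+/- mice. The log2 fold change by genotype was −0.26 under vehicle (SE 0.10, adjusted p = 0.0989), −0.05 under IMN (SE 0.10, adjusted p = 0.998) and −0.15 over both treatments (SE 0.07, adjusted p = 0.186). Over both treatments this is 89.9% of WT, with a 95% interval of 81.1 to 99.6%. The level of Brpf1 went together with the cortical markers. Its r with the cortical score over 31 mice was 0.735, the highest of the members, beside 0.714 with the astrocyte markers and −0.570 with those of striatal projection neurons. When that score was added to the fit the difference under vehicle was −0.08 (adjusted p = 0.782), and after median-of-ratios scaling it was also −0.08 (adjusted p = 0.507). Without vehicle administered WT mouse 8, one of the 2 with the lowest cortical scores, it was −0.32 (adjusted p = 0.0174, with 23.8% of all genes past an FDR of 5%).

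Brpf3 (ENSMUSG00000063952, chr17:28801090-28839949), the scaffold described with KAT7, had the widest spread of the members, with a coefficient of variation of 35.4% over 31 mice. Its lowest, median and highest levels were 7.23, 11.3 and 19.9 TPM in vehicle administered WT mice and 8.04, 10.4 and 19.0 TPM in vehicle administered Brd1+/- mice. Under IMN they were 7.92, 9.03 and 16.5 TPM in WT and 7.52, 9.59 and 18.8 TPM in Brd1+/- mice. In all 4 groups most mice were low and a few high. Split at the widest gap between neighbouring mice, of 2.68 TPM, 21 mice lay between 7.23 and 13.0 TPM and 10 between 15.7 and 19.9 TPM. This gap was 21.1% of the range, against 27.2% for Ing4 and 34.4% for Kat6a. A split chosen in this way does not show that there are separate classes of mice. The high mice were 1 of the vehicle administered WT group and 3 of each other group. They were mice 2, 3 and 4 of both Brd1+/- groups, mice 3, 4 and 7 of the IMN administered WT group and mouse 3 of the vehicle administered WT group. With the mouse number as a block, the 95% interval under vehicle was 79.5 to 135% of WT, against 76.9 to 152% without it. By genotype the log2 fold change was 0.11 under vehicle (SE 0.23), 0.03 under IMN (SE 0.21) and 0.07 over both treatments (SE 0.16, adjusted p = 0.814), or 105% of WT with a 95% interval of 83.8 to 132%. This interval holds losses as well as gains. Under vehicle the difference was 0.29 (122% of WT, 95% interval 88.7 to 168%, adjusted p = 0.464) after median-of-ratios scaling and 0.39 (131%, 95% interval 91.2 to 187%, adjusted p = 0.665) with the cortical score added. Over both treatments it was 0.18 (adjusted p = 0.591) after median-of-ratios scaling.

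Summed within each mouse under vehicle, Brpf1 and Brpf3 came to 29.2 ± 5.81 TPM in the 8 WT mice and to 27.3 ± 5.63 TPM in the 7 Brd1+/- mice (mean ± SD). They came to 26.7 ± 3.96 and 26.4 ± 5.64 TPM under IMN (n = 8 each). The sum of the 3 scaffolds was 51.7 ± 7.78 TPM in WT and 40.7 ± 6.61 TPM in Brd1+/- mice under vehicle, and 46.6 ± 5.63 and 39.1 ± 6.12 TPM under IMN. The order of the means of the 2 paralogs together turned with the scaling. After median-of-ratios scaling they came to 26.5 ± 3.86 in WT and 28.4 ± 5.71 in Brd1+/- mice under vehicle, and to 26.6 ± 3.55 and 27.0 ± 4.78 under IMN, so that the means lay closer together than the SD of either group with both scalings. Brd1 made up 43.9 ± 4.20% of the 3 scaffolds in WT and 33.3 ± 4.42% in Brd1+/- mice under vehicle, and 42.8 ± 3.96% and 33.1 ± 4.07% under IMN. These shares do not depend on the scaling between mice. Of all 9 members, Brd1 made up 8.13 to 10.0% in vehicle administered WT mice and 5.31 to 7.53% in Brd1+/- mice. Under IMN it was 7.57 to 9.94% against 4.73 to 6.66%, so that on this share the genotypes did not overlap under either treatment. Of the 3 scaffolds, Brd1 made up 37.3 to 48.1% in WT and 24.6 to 37.8% in Brd1+/- mice under vehicle, which overlap, and 37.9 to 50.3% against 26.2 to 37.6% under IMN, which do not. The shares hold Brd1 itself and are given with no test.

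**Figure D3:**
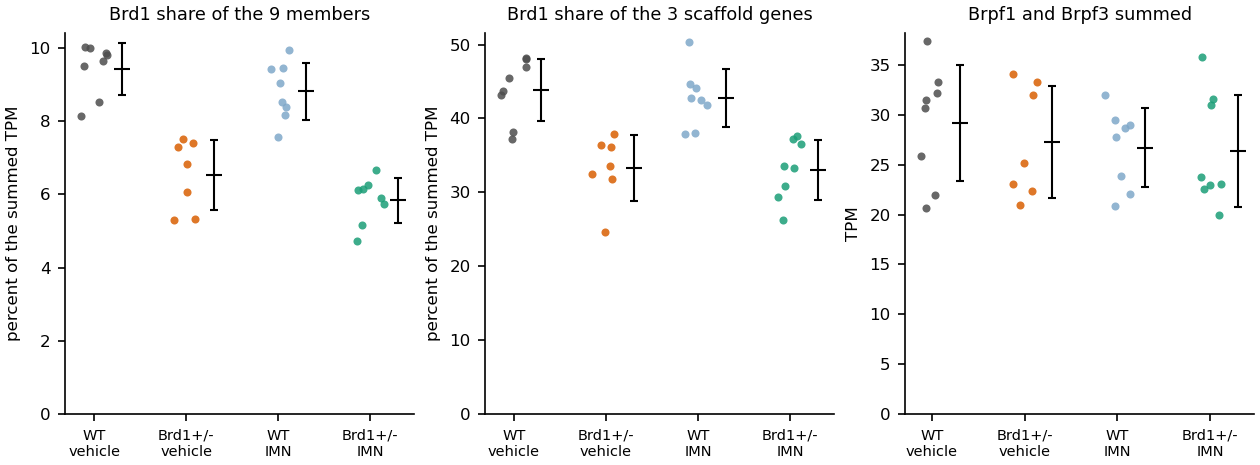
The panels plot, by group and with 1 point per mouse and the mean ± SD beside it, Brd1 as a percent of the summed TPM of the 9 members, Brd1 as a percent of the 3 scaffold genes, and the sum of Brpf1 and Brpf3 in TPM. The share of Brd1 among the 9 members was 8.13% or more in the vehicle administered WT mice and 7.53% or less in the vehicle administered Brd1+/- mice, while the summed paralogs overlapped in all groups.

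The sequences before the start sites of the scaffold genes are shown because the comparison above sets the transcript levels of these 3 genes against each other. Each is the 250 bases before the RefSeq start on GRCm38.p6, 5′ to 3′ on the strand of the gene, at chr15:88734220-88734469 (minus strand) for Brd1, chr6:113306887-113307136 for Brpf1 and chr17:28800876-28801125 for Brpf3, with GC boxes (GGGCGG, or CCGCCC on the other strand) in capitals.

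Brd1: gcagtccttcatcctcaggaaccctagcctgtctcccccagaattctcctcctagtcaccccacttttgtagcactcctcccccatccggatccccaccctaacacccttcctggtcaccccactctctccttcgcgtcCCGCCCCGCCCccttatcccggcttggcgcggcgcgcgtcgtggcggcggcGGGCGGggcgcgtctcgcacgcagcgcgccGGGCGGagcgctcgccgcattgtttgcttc

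Brpf1: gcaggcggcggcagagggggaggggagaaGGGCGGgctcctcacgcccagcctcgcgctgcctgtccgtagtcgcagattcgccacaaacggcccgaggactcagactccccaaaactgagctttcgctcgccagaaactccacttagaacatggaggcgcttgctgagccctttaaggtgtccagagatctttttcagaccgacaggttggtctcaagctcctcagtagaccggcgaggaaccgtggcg

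Brpf3: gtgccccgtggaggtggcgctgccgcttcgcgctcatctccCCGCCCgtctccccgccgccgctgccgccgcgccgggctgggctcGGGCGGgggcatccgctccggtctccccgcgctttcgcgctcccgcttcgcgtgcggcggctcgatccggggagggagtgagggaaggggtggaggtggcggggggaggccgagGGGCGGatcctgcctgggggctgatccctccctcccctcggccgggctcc

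These windows held 4 GC boxes for Brd1, 1 for Brpf1 and 3 for Brpf3. In windows of 300 bases (250 before to 50 after the start), 8 of the 9 members matched the table, with 9 promoters since Kat6b has a pair, and Kat6a was not matched. CpG dinucleotides numbered 36 for Brd1, 25 for Brpf1, 40 for Brpf3, 35 for Ing5, 34 for Meaf6, 32 and 34 for Kat6b, 16 for Ing4 and 14 for Kat7, against a median of 7 over 32851 promoters. A GC box was in 7 of the 9 member promoters against 35.7% of all promoters, and TATAAA in 0 against 13.6%, both strands searched. The 2 Kat6b promoters, chr14:21499520-21499819 and chr14:21499535-21499834, largely overlap and each held 8 GC boxes, so the 7 counts that gene 2 times. CCAAT was in 2, those of Kat7 and Ing5, against 37.4% of all, CCGGAAGT in 2, those of Kat7 and Ing4, against 3.89%, and TGACGTCA in 1, that of Ing4, against 1.79%. A match of letters is a description and was not tied to any measured value.

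The catalytic genes differed in level and in spread. Kat7 (ENSMUSG00000038909, chr11:95274259-95310246), which acetylates histone H3 or H4 according to its scaffold, was the steadiest member, with a coefficient of variation of 8.70% over 31 mice. Its lowest, median and highest levels were 33.5, 38.1 and 44.9 TPM in vehicle administered WT mice and 33.4, 36.5 and 40.1 TPM in vehicle administered Brd1+/- mice. Under IMN they were 32.3, 38.4 and 41.8 TPM in WT and 33.4, 35.7 and 43.5 TPM in Brd1+/- mice. All 4 groups overlapped, and over both treatments Kat7 in Brd1+/- mice was at 95.8% of WT with a 95% interval of 89.8 to 102% (log2 fold change −0.06, SE 0.05, adjusted p = 0.413). After median-of-ratios scaling the sign of this difference turned, to 0.05 on the log2 scale (adjusted p = 0.530).

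Kat6a (ENSMUSG00000031540, chr8:22859535-22943259), a MYST enzyme needed for blood stem cells and for histone H3 acetylation in development, had lowest, median and highest levels of 12.3, 16.1 and 23.1 TPM in vehicle administered WT mice and of 13.4, 14.8 and 18.6 TPM in vehicle administered Brd1+/- mice. Under IMN they were 13.1, 15.9 and 18.7 TPM in WT and 11.8, 15.4 and 18.2 TPM in Brd1+/- mice. The groups overlapped throughout, and over both treatments the log2 fold change was −0.05 (SE 0.07, adjusted p = 0.726), or 96.8% of WT with a 95% interval of 87.2 to 107%. After median-of-ratios scaling it was 0.06 (adjusted p = 0.651).

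Kat6b (ENSMUSG00000021767, chr14:21481434-21672478), the close paralog of Kat6a known for its part in the developing forebrain, had lowest, median and highest levels of 18.1, 25.5 and 32.5 TPM in vehicle administered WT mice and 17.1, 20.7 and 25.3 TPM in vehicle administered Brd1+/- mice. Under IMN they were 21.96, 24.1 and 30.9 TPM in WT and 20.5, 27.1 and 33.9 TPM in Brd1+/- mice. The Brd1+/- median was thus the lower one under vehicle and the higher one under IMN, with overlapping groups in both. The log2 fold change by genotype was −0.22 under vehicle (SE 0.13, adjusted p = 0.249), 0.12 under IMN (SE 0.09, adjusted p = 0.998) and −0.04 over both treatments (SE 0.08, adjusted p = 0.781), the last of which was 0.07 (adjusted p = 0.652) after median-of-ratios scaling. That scaling left −0.04 under vehicle (adjusted p = 0.867).

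Of the ING genes, Ing4 (ENSMUSG00000030330, chr6:125039760-125049265) and Ing5 (ENSMUSG00000026283, chr1:93803965-93822101) encode alternative readers of the same complex. Ing4 had lowest, median and highest levels of 19.95, 28.2 and 35.6 TPM in vehicle administered WT mice and 17.2, 22.3 and 37.9 TPM in vehicle administered Brd1+/- mice. Under IMN they were 9.50, 25.6 and 31.3 TPM in WT and 21.8, 31.9 and 36.2 TPM in Brd1+/- mice. The groups overlapped, and the log2 fold change by genotype was −0.17 under vehicle (SE 0.17, adjusted p = 0.515, and 0.01 after median-of-ratios scaling) and 0.37 under IMN (SE 0.19, adjusted p = 0.998). Ing4 overlaps Gm44597 on the same strand, with a mean of 3.88 TPM, and 4930557K07Rik on the other strand, with 0.525 TPM, so that a part of its reads cannot be assigned with certainty. Ing5 was the least abundant member and ran from 5.04 to 8.36 TPM over all mice. It had medians of 6.21 and 6.54 TPM in vehicle administered WT and Brd1+/- mice and of 7.03 and 6.39 TPM in IMN administered WT and Brd1+/- mice. Its groups overlapped, and over both treatments it was at 101% of WT with a 95% interval of 93.2 to 109% (adjusted p = 0.916). Under vehicle its log2 fold change was 0.10 (SE 0.09, adjusted p = 0.511). It was 0.26 after median-of-ratios scaling (95% interval 0.06 to 0.45, adjusted p = 0.116). After quantile normalization it was 0.30 (adjusted p = 0.0976), which is the added call named above.

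Meaf6 (ENSMUSG00000028863, chr4:125085134-125113238), the small subunit shared with the KAT5 complex, was the most abundant member. Its lowest, median and highest levels were 53.8, 76.9 and 84.8 TPM in vehicle administered WT mice and 47.4, 63.2 and 67.8 TPM in vehicle administered Brd1+/- mice. Under IMN they were 55.0, 70.3 and 78.7 TPM in WT and 54.4, 60.8 and 87.7 TPM in Brd1+/- mice. Under vehicle 6 of the 8 WT mice were above all Brd1+/- mice, and the remaining 2 were mice 6 and 8, which had the lowest cortical scores, at 53.8 and 54.7 TPM. The log2 fold change was −0.28 under vehicle (SE 0.12, adjusted p = 0.133), −0.10 under IMN (SE 0.11, adjusted p = 0.998) and −0.19 over both treatments (SE 0.08, adjusted p = 0.160). When the cortical score was added to the fit the difference under vehicle was −0.09 (adjusted p = 0.833), and it was −0.09 (adjusted p = 0.626) after median-of-ratios scaling. Without WT mouse 6 it was −0.34 (adjusted p = 0.0474) and without WT mouse 8 it was −0.33 (adjusted p = 0.0452), where 19.9% and 23.8% of all genes passed an FDR of 5%. Over both treatments it was −0.22 (adjusted p = 0.0759) without IMN administered Brd1+/- mouse 3, and called at p under 0.01 as 11.9% of all genes were.

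**Figure D4:**
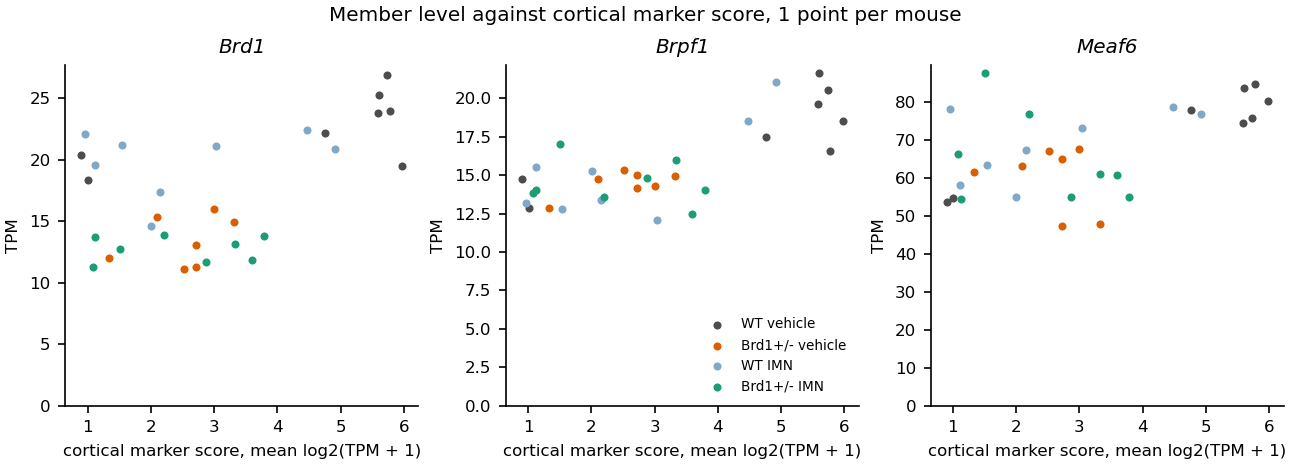
Abundance in TPM (vertical axis, from 0) of Brd1, Brpf1 and Meaf6 is plotted against the mean log2(TPM + 1) of 10 cortical neuron markers (horizontal axis), with 1 point per mouse and colors for the 4 groups. Most vehicle administered WT mice lie to the right, and for Brd1 the pair of these mice at the left, with scores of 0.903 and 1.01, sits at 20.4 and 18.3 TPM, above the Brd1+/- mice.

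In the order of mean level in vehicle administered WT mice, Meaf6 at 73.2 TPM was followed by Kat7 at 38.9, Ing4 at 27.7, Kat6b at 25.2, Brd1 at 22.5, Brpf1 at 17.7, Kat6a at 16.4, Brpf3 at 11.5 and Ing5 at 6.14 TPM. Meaf6 was above Kat7, Kat7 above Ing4 and Brpf3 above Ing5 in all 31 mice. Ing4 was above Kat6b in 19 of 31 mice and Brpf1 above Kat6a in 15 of 31, so that neither pair of neighbours was separated. Brd1 was above Brpf1 in all 8 vehicle administered WT mice and in 18 of the 31 mice. The ratio of Brd1 to Brpf1 had a mean of 1.28 ± 0.136 (SD, n = 8) in WT mice under vehicle and of 0.926 ± 0.139 (SD, n = 7) in the Brd1+/- mice beside them, and of 1.35 ± 0.310 and 0.888 ± 0.106 (SD, n = 8 each) under IMN.

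IMN was compared with vehicle within each genotype, and these comparisons share their vehicle mice with those by genotype. In WT mice 0 of the 9 members were called at p under 0.01, where 6.95% of 23579 genes were. Brd1 had a log2 fold change of −0.17 (SE 0.10, adjusted p = 0.297), Brpf1 of −0.21 (SE 0.12, adjusted p = 0.306) and Ing5 of 0.15 (SE 0.09, adjusted p = 0.306). The other 6 members lay between −0.23 and 0.01, where the median of all genes was −0.08. Brd1 and Brpf1 had −0.05 and −0.09 after median-of-ratios scaling, and −0.08 and −0.01 with the cortical score added, while Ing5 had 0.26 (adjusted p = 0.171) and 0.12. In Brd1+/- mice 1 of the 9 members was called, where 1.83% of 23020 genes were. That member was Kat6b, whose log2 fold change was 0.35 (SE 0.10, 95% interval 0.14 to 0.56), or 128% of the vehicle level with a 95% interval of 110 to 148%. It did not pass an FDR of 5% (adjusted p = 0.408), and 0 genes did in this comparison, where 1633 had an unadjusted p under 0.05. Without each mouse in turn it was called at p under 0.01 in 15 of 15 fits, with an adjusted p of 0.233 to 0.669. With the mouse number as a block the call was lost, at 0.31 (adjusted p = 0.492). The score of 8 oligodendrocyte markers, all found, was 6.62 to 7.99 (median 7.35) in vehicle and 6.49 to 8.90 (median 7.75) in IMN administered Brd1+/- mice, and the r of Kat6b with it over 31 mice was 0.457, its highest with any marker list. The part of these markers in the difference was not tested. Of the remaining members Ing4 had a log2 fold change of 0.31 (SE 0.15, adjusted p = 0.707). It was 0.42 (adjusted p = 0.518), and called at p under 0.01 as 1.74% of all genes were, without vehicle administered Brd1+/- mouse 6. Brd1 had a log2 fold change of −0.06 (SE 0.09, adjusted p = 0.934).

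**Figure D5:**
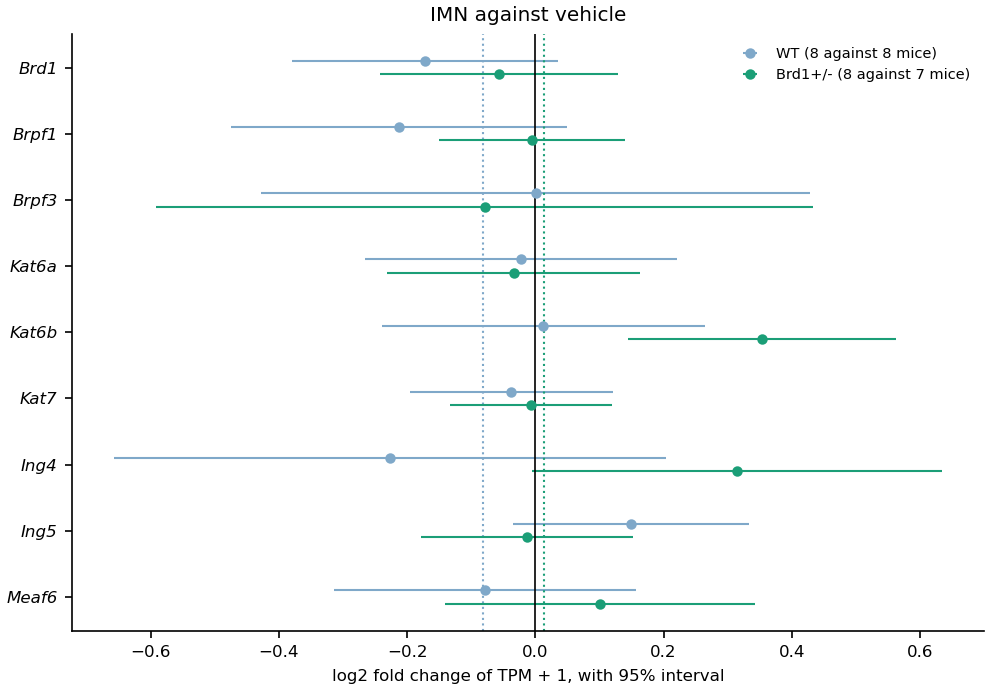
The horizontal axis is the log2 fold change of TPM + 1 in IMN against vehicle administered mice, with points and 95% intervals from limma for each member in WT (8 against 8 mice) and Brd1+/- mice (8 against 7), and dotted lines mark the median of all genes tested. Only the Kat6b interval in Brd1+/- mice, from 0.14 to 0.56, lies wholly on 1 side of 0.

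Whether IMN acted differently in the genotypes was tested with the interaction over 31 mice, in which 0 of the 9 members were called at p under 0.01, where 3.74% of 25394 genes were. The largest values were 0.54 for Ing4 (SE 0.27, adjusted p = 0.308), with 95% interval bounds of about 0 and 1.08, and 0.34 for Kat6b (SE 0.16, 95% interval 0.02 to 0.66, adjusted p = 0.289). After median-of-ratios scaling these were 0.41 (95% interval −0.12 to 0.93) and 0.21 (95% interval −0.06 to 0.47), and Ing5 had −0.28 (95% interval −0.50 to −0.06, adjusted p = 0.292). For Brd1 it was 0.11 (SE 0.13, 95% interval −0.15 to 0.38, adjusted p = 0.681). The loss of Brd1 was thus not shown to differ between treatments, and the interval holds differences of up to 0.38 on the log2 scale. The ratio of Kat6b to Kat6a within a mouse had a mean of 1.55 ± 0.141 (SD, n = 8) in the WT mice given vehicle, against 1.36 ± 0.119 (SD, n = 7) in the Brd1+/- mice given vehicle. Under IMN it was 1.59 ± 0.152 in WT and 1.80 ± 0.234 in Brd1+/- mice (SD, n = 8 each). In Brd1+/- mice it ran from 1.20 to 1.57 under vehicle and from 1.53 to 2.31 under IMN, with a small overlap. It is given with no test, since Kat6b had been seen to differ.

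Genes of related acetyltransferase complexes were counted beside the members. Under vehicle 0 of 3 JADE scaffolds, 1 of 3 other ING genes, 3 of 16 genes of the KAT5 complex, 2 of 12 of the KAT8 complexes and 0 of 9 other acetyltransferases were called at p under 0.01, all of them lower in Brd1+/- mice, where 12.1% of all genes were called in that direction. None of these 43 genes passed an FDR of 5% in the fit as planned. The median log2 fold change was −0.07 for the JADE genes, −0.40 for the other ING genes, −0.18 for the KAT5 complex, −0.16 for the KAT8 complexes and −0.10 for the other acetyltransferases, beside −0.13 for all genes. Under IMN 1 of the 43 was called, Epc1 of the KAT5 complex, where 0.703% of all genes were, and Epc1 was named after its value was seen.

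Ing1, a reader in histone deacetylase complexes, had under vehicle 14.8 ± 5.68 TPM in WT (SD, n = 8) against 8.00 ± 1.36 TPM in Brd1+/- mice (SD, n = 7), a log2 fold change of −0.74 (SE 0.20, adjusted p = 0.0556). It was at 8.70 ± 2.12 and 8.42 ± 0.814 TPM under IMN. Its relative Ing2 had −0.40 (SE 0.17, adjusted p = 0.118). In the KAT5 complex Yeats4, an acyl-lysine reader, had −0.34 (SE 0.09, adjusted p = 0.0556) and Morf4l2 −0.44 (SE 0.13, adjusted p = 0.0572). Kansl1 and Kansl2, subunits of the KAT8 complex that acts at promoters, had −0.27 (SE 0.07, adjusted p = 0.0556) and −0.25 (SE 0.08, adjusted p = 0.0638). These 6 genes were named for the smallest p of their lists under vehicle, so that their p-values support nothing about the lists. Among genes with a mean of at least 1 TPM, Ing1, Yeats4, Morf4l2 and Kansl1 passed an FDR of 5% (adjusted p 0.0451 to 0.0476), as 10.5% of all genes did. In one fit of the 4 groups all 6 did (adjusted p 0.00821 to 0.0495), as 19.5% of all genes did. After median-of-ratios scaling Ing1 had −0.57 and was still called (adjusted p = 0.0938). The calls of Yeats4 at −0.16, Morf4l2 at −0.25, Kansl1 at −0.08 and Kansl2 at −0.07 were lost, and Ing2 had −0.23. With the cortical score added, 0 of the 6 were called, and Ing1 had −0.36 (adjusted p = 0.507). Under IMN Ing1 had −0.02, Ing2 −0.03, Yeats4 −0.10, Morf4l2 0.08, Kansl1 −0.03 and Kansl2 −0.09. Jade2 and Jade3, the alternative scaffolds of KAT7, had −0.15 and 0.11 under vehicle, with p above 0.05. The other acetyltransferases with the smallest p under vehicle, Ncoa3 and Kat14, had −0.29 and −0.25, also with p above 0.05.

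The genes whose level was most like that of Brd1 over the 31 mice were Caml (r = 0.809), Cbx3-ps7 (r = 0.808), Vstm2b (r = 0.801), Usp10 (r = 0.794) and Cbx3-ps6 (r = 0.792), by Pearson correlation of log2(TPM + 1) against 17390 genes with a mean of at least 1 TPM. After the mean of each group was subtracted they were Rictor (r = 0.871), Epm2aip1 (r = 0.860), Cep170 (r = 0.842), Rnf19a (r = 0.841) and Ercc6 (r = 0.841). Among the members, the r of Brd1 with Kat6a was 0.427 over the mice as they stand and 0.701 within groups, and with Kat6b 0.300 and 0.684, while Kat6a and Kat6b had 0.652 and 0.794 with each other. With Brpf1 the r of Brd1 was 0.503 and 0.315, and with Ing4 −0.158 and −0.130. These values are descriptions over mice that share the scaling of TPM and the dissection, and carry no test.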

How the data were processed

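RNA of CPu punches from 31 mice was sequenced by the authors, who per the labels trimmed reads with Trimmomatic, checked them with FastQC, aligned them to GRCm38 with HISAT2 2.1.0 and quantified genes with StringTie 1.3.4. The authors deposited TPM, not read counts, for 52636 gene identifiers, with sums of 999787 to 999918 per mouse. The study's methods set a minimum number of clean single-end reads for each library, but TPM does not keep the depth of each mouse, so no counting error is given and precision rests on the spread between mice. Whether counting used strand is not given in the sources used here. GENCODE M21 named 52403 identifiers, and 0 columns were left unused.

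Groups came from the sample labels. Genes that exceeded 0.1 TPM in 7 or more mice of a comparison were kept, and log2(TPM + 1) was fitted by limma 3.58.1 (R 4.3.3), moderated by empirical Bayes along a mean-variance trend. The tests, all two-sided, had Benjamini-Hochberg adjustment over all genes tested and thresholds of p under 0.01 and an FDR of 5%. The count test of the study's methods does not apply to TPM and was not run. Brd1 was also tested by exact permutation, and scripts were tested on simulated data. P-values measure the spread between these mice.

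All 9 members were named. From each related list the 2 genes with the smallest p under vehicle were named, or any under an FDR of 5%, and for likeness to Brd1 the 5 highest r, over the mice and within groups. The members and lists were chosen with earlier results of these data known. Alternatives were a pseudocount of 0.1, a mean of at least 1 TPM, no filter, median-of-ratios scaling, quantile normalization, one fit of all 4 groups, mouse number as a block, cortical or striatal marker scores as covariates, and each mouse left out. Leaving out vehicle administered WT mice 2 and 7 together, and scaling the summed paralogs, were added after seeing the data.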

Additional observations from a re-analysis of the deposited data

Results flagged for a closer look

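In 36 sets of values (9 members in 4 groups), the gap between the most extreme mouse and its neighbour, as a share of the range of the group, was examined by Dixon's criterion, and 4 mice stood apart. Chance alone sets a mouse apart in about 1 in 20 groups. Brpf3 was at 19.91 TPM in vehicle administered WT mouse 3, above a next highest of 13.0 TPM in that group. Kat7 was at 43.46 TPM in IMN administered Brd1+/- mouse 3, where the group median was 35.7 TPM. Ing4 was at 9.5 TPM in IMN administered WT mouse 1, the lowest of all 31 mice, and Ing5 was at 8.36 TPM in vehicle administered Brd1+/- mouse 3, the highest of all 31 mice.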

How the results depend on the processing

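Of the values for the members, pseudocount, both filters and the common fit of 4 groups turned 0 in direction, median-of-ratios scaling 11 of 54, quantile normalization 12 of 54, the cortical covariate 7 of 54, the striatal covariate 5 of 54, the replicate block 1 of 54 and leaving out vehicle administered WT mice 2 and 7 together 3 of 36. None of the turned values had been called, and the cause was not tested. Brd1 stayed lower by genotype in every fit run, with log2 fold changes of −0.75 to −0.51 under vehicle, −0.66 to −0.55 under IMN and −0.69 to −0.53 over both treatments. Apart from the fits that leave out 1 mouse, its adjusted p ran from 0.000462 to 0.524 under vehicle (under 0.05 in 5 of 10 alternatives), from 0.00686 to 0.474 under IMN (6 of 9) and from 6.75e-08 to 3.27e-05 over both (9 of 9). As log2 fold changes, median-of-ratios scaling gave, under vehicle, Ing4 0.010, Kat6a 0.14, Kat7 0.11 and Jade2 0.036, over both treatments Kat6a 0.061, Kat6b 0.067 and Kat7 0.051, for IMN in WT Kat6a 0.095, Kat7 0.084 and Meaf6 0.045, and for the interaction Brd1 −0.021 and Kat7 −0.11. Quantile normalization gave, under vehicle, Ing4 0.028, Kat6a 0.16, Kat7 0.11 and Jade2 0.043, under IMN Kat7 0.0017, over both Kat6a 0.073, Kat6b 0.077 and Kat7 0.054, for IMN in WT Kat6a 0.11, Kat7 0.098 and Meaf6 0.081, and for the interaction Brd1 −0.043 and Kat7 −0.11. The cortical covariate gave, under vehicle, Kat6a 0.10, Kat7 0.0032 and Kat14 0.014, over both Ing5 −0.012, for IMN in WT Kat6a 0.062, Kat7 0.029 and Meaf6 0.11, and for the interaction Kat7 −0.0066. The striatal covariate gave, under vehicle, Ing4 0.0055, Jade3 −0.037 and Kat14 0.0056, over both Ing5 −0.028, for IMN in WT Kat6b −0.015 and Meaf6 0.028, and for IMN in Brd1+/- mice Meaf6 −0.020. Without WT mice 2 and 7 together, Ing5 over both treatments was −0.0040, Kat6b for IMN in WT −0.0058 and the interaction of Kat6a 0.019. Members called at p under 0.01 under vehicle numbered 2 in place of 1 after quantile normalization and with the replicate block, where 9.53% and 17.7% of all genes were called in place of 13.6%. Over all genes under vehicle, calls at p under 0.01 numbered 3153 as planned, 5005 in the common fit of 4 groups, 540 with the cortical and 347 with the striatal covariate, and 1317 without WT mice 2 and 7 together, while genes past an FDR of 5% numbered 0 as planned, 1833 with a mean of at least 1 TPM, 3583 with the replicate block, 4963 in the common fit, 4563 without WT mouse 6 and 5482 without WT mouse 8. Whether the mouse numbers pair the mice was not settled. Correlations of same-numbered mice ran from −0.432 to 0.452. Those over 0.1 were 3 of 7 between the Brd1+/- groups and 2 of 8 between the WT groups. Between genotypes they were 2 of 8 under IMN and 0 of 7 under vehicle. The paper describes WT and Brd1+/- mice as litter-matched. These correlations cannot exclude such pairing, since they also carry differences in dissection between mice. With the replicate block Brd1 had an adjusted p of 0.0244 under vehicle, 0.474 under IMN and 3.27e-05 over both treatments. Under that block Kat6a had an interaction of 0.0073 on the log2 scale, and Kat6b for IMN in Brd1+/- mice was no longer called. With each mouse left out in turn, members called numbered 1 to 2 under vehicle (2 without WT mouse 6 or mouse 8, with 19.9% and 22.4% of all genes called) and 1 to 2 over both treatments (2 without IMN administered Brd1+/- mouse 3, with 11.9% of all genes called), and these values crossed 0: under vehicle Kat6a −0.093 to 0.030, under IMN Brpf1 −0.095 to 0.013 and Brpf3 −0.065 to 0.11, over both Ing5 −0.015 to 0.027, for IMN in WT Brpf3 −0.078 to 0.12, Kat6a −0.074 to 0.049 and Kat6b −0.050 to 0.066, for IMN in Brd1+/- mice Brpf1 −0.038 to 0.023, Brpf3 −0.18 to 0.025, Kat6a −0.069 to 0.015, Kat7 −0.042 to 0.014 and Ing5 −0.036 to 0.038, and for the interaction Brpf3 −0.19 to 0.024, Kat6a −0.082 to 0.040 and Kat7 −0.0046 to 0.060. TPM does not keep the depth of each mouse, so no floor for low values is given.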
